A study of Mus musculus with 15 samples.

Results

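The genes of fatty acid uptake and beta-oxidation were followed in whole hearts of septic and sham-operated mice. The list names 34 genes, and a gene counted as measured where at least 1 probe set on the arrays is paired with that gene alone. By this rule 33 of the 34 were measured, out of 12393 genes in all, through 56 probe sets: 17 genes had 1 probe set and 16 had several, up to 4. Acsl1, the long-chain acyl-CoA synthetase, has no such probe set and is not reported. Polymicrobial sepsis followed CLP (caecal ligation and perforation): surgeons tied and pierced the caecum, and gut contents leaked into the abdomen. Sham mice had the abdomen opened and the caecum moved and put back. All mice were anaesthetised with isoflurane for surgery, received buprenorphine and saline under the skin, and were anaesthetised again with ketamine and xylazine 48 h after surgery, when heart function was recorded by a catheter and the heart was frozen. There were 15 arrays, 3 in each of 5 groups. Wild-type mice (C57/BL6) gave septic hearts labelled Max Dep, septic hearts labelled Min Dep and sham hearts. The labels do not say what Max Dep and Min Dep stand for. The knockout mice (congenic B6.129P2-Nos2tm1Lau/J, labelled iNOS KO), which lack inducible nitric oxide synthase in all their cells, gave CLP hearts and sham hearts. Replicate numbers only name the arrays.

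The values come in 2 tables that cannot be set side by side in level. Wild-type values are in standardised units: each probe set was brought to the same mean and the same spread over the 9 wild-type arrays. A gene with a small change and a gene with a large change therefore look alike, and no fold can be given. Differences are capped too: over all 12393 genes CLP minus sham ran from -2.14 to 2.03. The size of a difference thus reflects how steadily the arrays separate, not how much a gene changed. Knockout values behave like log values around a reference, with a log base and a reference that are not given, and range from -7.78 to 8.18 over the whole table. They are not all centred gene by gene over the knockout arrays. For Acot1 and Slc27a1 sham replicate 2 is at 0.00 and is the middle of the 5 knockout arrays compared below. Other genes do not lie around 0. Bdh1, for example, was at 2.55, 3.54 and 4.65 in CLP hearts and at -0.34, 2.55 and -0.85 in sham hearts. Since each genotype has its own table, made on its own array model, a difference between genotypes cannot be told apart from one between tables. No array intensities were used, so the heart origin of the RNA could not be checked by the level of its defining markers.

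Heart muscle takes most of its energy from fatty acids. Lipoprotein lipase frees them from circulating triglyceride at the capillary wall, Cd36 and Slc27a1 help them into the cell, and Fabp3 carries them in the cytosol. Once joined to coenzyme A they enter mitochondria on carnitine, through Cpt1 and Cpt2. There the beta-oxidation spiral removes acetyl-CoA units in repeated rounds of dehydrogenation, hydration, a further dehydrogenation and thiolysis. Electrons from the acyl-CoA dehydrogenases pass to the electron transfer flavoprotein (Etfa and Etfb) and from it, through Etfdh, to ubiquinone in the respiratory chain.

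The promoters of 4 members are shown so that their start sites can be compared. They are Etfdh, the member that passed the test by gene mean, Echs1 and Acadm, which did not pass, and Hadha, whose start site lies close to that of its partner gene Hadhb. Acot2 and Hadh lay nearer to the threshold than Acadm and are not shown. Each window runs from 250 bases before to 50 bases after the start site, written 5′ to 3′ on the gene's own strand, and was taken from RefSeq on build GRCm38.p6. The Etfdh window is chr3:79628718-79629017, the Echs1 window chr7:140116372-140116671, the Acadm window chr3:153944594-153944893 and the Hadha window chr5:30154931-30155230, all on the minus strand. Capitals mark the motif of nuclear respiratory factor 1, a pair of GCGC blocks with any 2 bases between them, in the Etfdh window, and AGGTCA, the core motif of many nuclear receptors, in the Echs1 window. In the Acadm window the capitals mark AGGTCA on the opposite strand, and in the Hadha window the 228 bases it shares with the Hadhb window.
Etfdh: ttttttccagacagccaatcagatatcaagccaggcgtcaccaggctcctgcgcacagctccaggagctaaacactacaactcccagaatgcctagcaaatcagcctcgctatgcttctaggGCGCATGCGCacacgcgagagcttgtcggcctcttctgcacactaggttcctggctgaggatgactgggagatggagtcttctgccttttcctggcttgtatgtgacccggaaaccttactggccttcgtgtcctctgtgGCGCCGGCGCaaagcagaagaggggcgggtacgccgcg
Echs1: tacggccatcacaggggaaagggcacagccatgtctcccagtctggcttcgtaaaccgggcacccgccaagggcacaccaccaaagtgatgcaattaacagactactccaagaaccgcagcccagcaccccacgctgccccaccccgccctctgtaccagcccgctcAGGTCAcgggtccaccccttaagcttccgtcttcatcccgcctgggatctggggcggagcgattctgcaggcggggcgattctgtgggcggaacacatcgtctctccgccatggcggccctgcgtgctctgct
Acadm: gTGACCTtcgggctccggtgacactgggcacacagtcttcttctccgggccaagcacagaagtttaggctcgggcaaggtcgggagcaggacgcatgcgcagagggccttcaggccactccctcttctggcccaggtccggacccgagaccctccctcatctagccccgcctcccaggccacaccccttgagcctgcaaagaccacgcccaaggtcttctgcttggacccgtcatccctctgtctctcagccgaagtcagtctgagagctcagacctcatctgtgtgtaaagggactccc
Hadha: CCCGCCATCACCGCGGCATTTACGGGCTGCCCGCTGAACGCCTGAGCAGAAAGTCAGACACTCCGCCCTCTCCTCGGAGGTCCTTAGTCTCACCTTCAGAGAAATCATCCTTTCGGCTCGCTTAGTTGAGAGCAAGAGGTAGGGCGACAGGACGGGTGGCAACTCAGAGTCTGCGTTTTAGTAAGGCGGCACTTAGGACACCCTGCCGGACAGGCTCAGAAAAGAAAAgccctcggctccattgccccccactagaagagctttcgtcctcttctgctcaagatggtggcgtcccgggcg

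Promoter windows were found for 27 of the 33 measured members, 30 windows in all because some genes have several start sites. On either strand, AGGTCA was in 5 of the 30 (16.7%), those of Acadm, Acadvl, Cd36, Cpt1a and Echs1, against 16.26% of 32851 mouse windows of the same length. The paired GCGC motif was in 2 of the 30 (6.67%), those of Etfb and Etfdh, against 6.23% of all windows. A repeat of AGGTCA with any 1 base between the copies, the form bound by the fatty acid receptor PPAR alpha, was in 0 of the 30 and in 0.04% of all windows, and TCAAGGTCA, the motif of the estrogen-related receptors, was in 0 of the 30 and in 0.42% of all. AGGTCA lies within both of these longer motifs. The shares in the members were close to those in all windows. Hadha and Hadhb, the subunits of the mitochondrial trifunctional protein, are transcribed away from each other from start sites 273 bases apart.

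The first comparison set septic against sham hearts of wild-type mice, with the Max Dep and Min Dep group means weighted equally. Etfdh, which hands electrons from the flavoprotein to the respiratory chain, fell after CLP. The 5 enzymes of the later spiral steps all had differences below 0, and 4 of them had every septic array below every sham array. Lpl had every septic array above every sham array, while Cd36, which takes up the fatty acids that Lpl frees, differed by 0.10 ± 0.30 standardised units (SE). Of the 33 genes 22 had a difference below 0, 66.7% against 49.2% of all genes, and the median difference was -0.99 against 0.02 standardised units over all 12393 genes.

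By the test across all genes (limma, Benjamini-Hochberg, adjusted p under 0.05), 1 member fell and 0 rose. Of all genes 0.379% fell, 0.339% rose and 0.718% passed in either direction. At an unadjusted p under 0.05, 15 members were lower and 3 higher (45.5% and 9.09%), against 9.38% and 9.23% of all genes. The arrays of the groups did not overlap for 11 members with lower values after CLP, 33.3% of the 33 against 6.11% of all genes, and for 3 with higher values, 9.09% against 5.89%. The share of members separated downwards was thus several times that of all genes, and the share separated upwards lay near it. The members share arrays and a pathway, so these shares describe the list and carry no test. Nor was downward separation particular to the members. It was seen in 6 of 10 fibroblast markers, 4 of 15 cardiomyocyte markers and 5 of 19 other fatty acid handling genes. It was rarer in other lists: 2 of 23 other mitochondrial acyl-CoA enzymes, 2 of 15 other peroxisomal genes and 2 of 14 PPAR alpha regulators and targets.

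**Figure D1:**
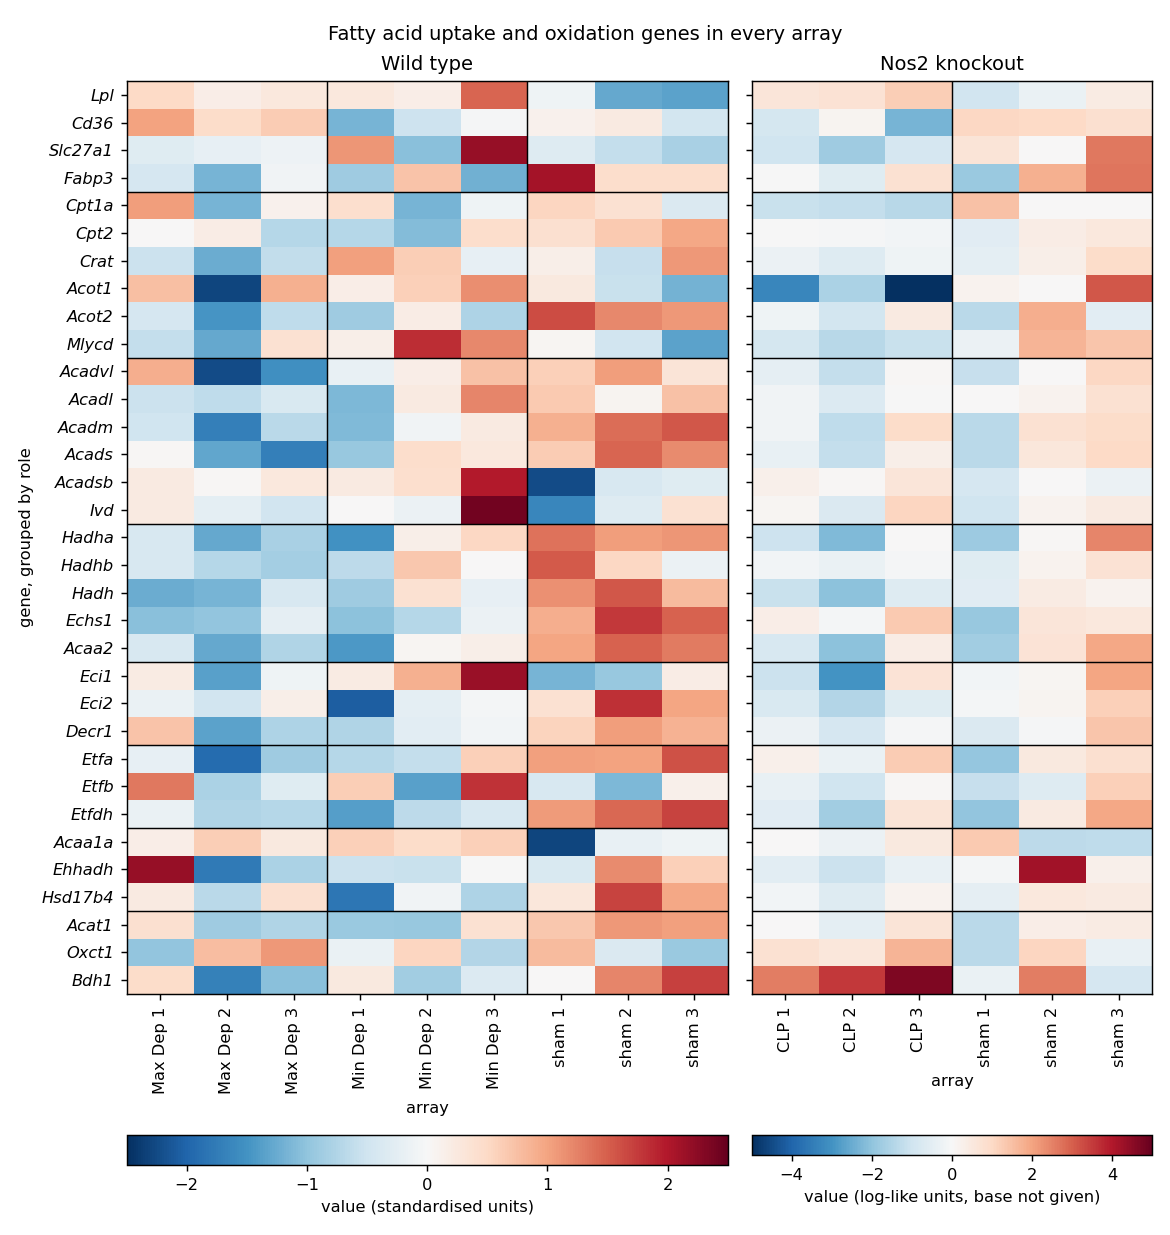
Values of the 33 measured genes in every array (columns). Rows are genes, grouped by role from delivery at the top to ketone body enzymes at the bottom. Wild-type hearts are on the left in standardised units and knockout hearts on the right in log-like units. Red is above 0 and blue below 0. Wild-type genes have means near 0, while knockout values are not all centred gene by gene. In wild type Hadha, Hadh, Echs1, Acaa2, Etfa and Etfdh are red in all 3 sham columns and mostly blue in the 6 septic columns, and in the knockout table sham replicate 1 is blue for most genes while sham replicate 3 is red for most.

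Among the genes of delivery and uptake, Lpl was at 0.49, 0.16 and 0.27 standardised units in Max Dep hearts, at 0.27, 0.16 and 1.45 in Min Dep hearts and at -0.10, -1.28 and -1.33 in sham hearts. Every septic array lay above every sham array, with the Min Dep replicate 3 array far above the other septic arrays. The difference was 1.37 ± 0.41 standardised units (SE, 6 against 3 arrays, limma adjusted p = 0.163). Its 2 probe sets differed in size, at 1.95 ± 0.36 and 0.80 ± 0.66. Fabp3, the cytosolic carrier of the heart, was at -0.42, -1.16 and -0.08 in Max Dep hearts, at -0.88, 0.72 and -1.20 in Min Dep hearts and at 2.08, 0.43 and 0.44 in sham hearts. The Min Dep replicate 2 array reached into the sham range, and the difference of -1.49 ± 0.61 did not pass (adjusted p = 0.272). Slc27a1, a fatty acid transport protein, differed by 0.84 ± 0.68. For Cd36 the 3 probe sets went different ways, at 1.38 ± 0.42, 0.59 ± 0.63 and -1.67 ± 0.57 standardised units, so the mean near 0 stands for no single one of them.

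Of the carnitine and thioesterase genes, Acot2 separated most clearly. This mitochondrial thioesterase, which splits fatty acyl-CoA back into fatty acid and coenzyme A, was at -0.42, -1.48 and -0.64 in Max Dep hearts, at -0.89, 0.19 and -0.78 in Min Dep hearts and at 1.63, 1.20 and 1.09 in sham hearts. The groups did not overlap, and the difference was -1.98 ± 0.35 (adjusted p = 0.0653). Its cytosolic relative Acot1 differed by 0.71 ± 0.81, with arrays that overlapped. Cpt2, which returns the acyl group from carnitine to coenzyme A inside the mitochondrion, differed by -0.99 ± 0.39, and Cpt1a, one form of the gatekeeping enzyme on the outer membrane, by -0.33 ± 0.59. Crat, which exchanges short acyl groups with carnitine, differed by -0.39 ± 0.46, and Mlycd, which breaks down the Cpt1 inhibitor malonyl-CoA, by 0.88 ± 0.57. None of these 6 genes passed, and 4 of the 6 had differences below 0.

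Of the 6 acyl-CoA dehydrogenases 0 passed and 4 had differences below 0. Acadm, the medium-chain enzyme, was at -0.49, -1.70 and -0.67 in Max Dep hearts, at -1.10, -0.09 and 0.22 in Min Dep hearts and at 0.89, 1.39 and 1.55 in sham hearts. Acads, the short-chain enzyme, was at 0.02, -1.29 and -1.70 in Max Dep hearts, at -0.95, 0.43 and 0.26 in Min Dep hearts and at 0.63, 1.46 and 1.19 in sham hearts. In both genes every septic array lay below every sham array, with differences of -1.92 ± 0.41 for Acadm (adjusted p = 0.0887) and -1.63 ± 0.51 for Acads (adjusted p = 0.174). The very long-chain enzyme Acadvl differed by -1.01 ± 0.71 and the long-chain enzyme Acadl by -0.70 ± 0.50, both with overlapping arrays, and the 2 probe sets of Acadl disagreed, at -1.85 ± 0.46 and 0.46 ± 0.77.

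Acadsb and Ivd, dehydrogenases that work mainly on products of branched-chain amino acids, lay on the other side. Acadsb was at 0.23, 0.03 and 0.26 in Max Dep hearts, at 0.22, 0.42 and 1.98 in Min Dep hearts and at -2.23, -0.40 and -0.30 in sham hearts. The groups did not overlap, but the difference of 1.50 ± 0.60 (adjusted p = 0.259) leans on an extreme array in each group, Min Dep replicate 3 and sham replicate 1. Ivd, at 0.82 ± 0.73, had overlapping arrays and the same extreme arrays, 2.42 in Min Dep replicate 3 and -1.63 in sham replicate 1.

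The later steps of the spiral were the most uniform group, with a median difference of -1.76. Echs1, the short-chain enoyl-CoA hydratase, was at -1.04, -0.99 and -0.22 in Max Dep hearts, at -1.02, -0.71 and -0.15 in Min Dep hearts and at 0.90, 1.76 and 1.48 in sham hearts. All septic values were below 0 and all sham values above it, and the difference of -2.07 ± 0.32 missed the threshold (adjusted p = 0.0543). Hadh, the short-chain hydroxyacyl-CoA dehydrogenase, was at -1.25, -1.17 and -0.41 in Max Dep hearts, at -0.88, 0.39 and -0.20 in Min Dep hearts and at 1.15, 1.55 and 0.80 in sham hearts. It differed by -1.76 ± 0.36 (adjusted p = 0.0781), again without overlap. Acaa2, a thiolase of the last step, was at -0.40, -1.27 and -0.75 in Max Dep hearts. In Min Dep hearts it was at -1.43, 0.04 and 0.15, and in sham hearts at 0.99, 1.48 and 1.30. Its 3 probe sets gave similar differences, -1.83, -1.86 and -1.91, and the gene mean differed by -1.87 ± 0.42 (adjusted p = 0.0962).

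The trifunctional protein carries out the last 3 steps on long chains. Hadha, its alpha subunit, was at -0.40, -1.27 and -0.82 in Max Dep hearts, at -1.52, 0.14 and 0.52 in Min Dep hearts and at 1.35, 1.04 and 1.11 in sham hearts, a difference of -1.72 ± 0.48 (adjusted p = 0.142) without overlap. Hadhb, the beta subunit, differed by -0.96 ± 0.45 with overlapping arrays (adjusted p = 0.324). One Hadhb probe set differed by -1.60 ± 0.37 and the other, marked by the array maker for possible cross-hybridisation, by -0.32 ± 0.82.

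Etfdh was the single member to pass by gene mean. Its values were -0.17, -0.75 and -0.71 in Max Dep hearts, -1.38, -0.66 and -0.41 in Min Dep hearts and 1.06, 1.43 and 1.69 in sham hearts. The gap between the highest septic and the lowest sham array was wider than the range within either septic group. It fell by 2.07 ± 0.28 standardised units (SE, 95% interval of the difference -2.75 to -1.40, limma adjusted p = 0.0482). The lower end of this interval lies beyond -2.14, the lowest difference of any gene, because the scale caps differences. Etfa, the alpha subunit of the flavoprotein that feeds Etfdh, was at -0.20, -1.92 and -0.88 in Max Dep hearts, at -0.71, -0.60 and 0.60 in Min Dep hearts and at 1.02, 1.01 and 1.59 in sham hearts. The arrays did not overlap and the difference was -1.82 ± 0.48 (adjusted p = 0.129). The beta subunit Etfb did not follow, with 0.69 ± 0.83 and overlapping arrays.

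Among the enzymes that prepare unsaturated fatty acids for the spiral, Eci2 was at -0.16, -0.48 and 0.14 in Max Dep hearts, at -2.07, -0.25 and -0.05 in Min Dep hearts and at 0.38, 1.82 and 0.99 in sham hearts. Every septic array lay below every sham array, and the difference was -1.55 ± 0.56 (adjusted p = 0.222). Decr1, the dienoyl-CoA reductase, differed by -1.24 ± 0.47 (adjusted p = 0.239), and the other isomerase, Eci1, by 0.98 ± 0.60, both with overlap.

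Of the peroxisomal enzymes, Acaa1a, a thiolase, had every septic array above every sham array. It was at 0.17, 0.62 and 0.24 in Max Dep hearts, at 0.60, 0.45 and 0.60 in Min Dep hearts and at -2.30, -0.18 and -0.10 in sham hearts, with a difference of 1.31 ± 0.52 (adjusted p = 0.259). Without sham replicate 1 the difference was 0.59 for Acaa1a and 0.87 for Acadsb. That array stood far below the other sham arrays here, as it did for Acadsb, and both genes rest only on probe sets that the array maker marks for possible cross-hybridisation. The multifunctional enzymes Ehhadh and Hsd17b4 differed by -0.71 ± 0.91 and -1.44 ± 0.51, with overlap. In the ketone body group, Acat1, the mitochondrial acetoacetyl-CoA thiolase, was at 0.40, -0.88 and -0.76 in Max Dep hearts, at -0.93, -0.94 and 0.39 in Min Dep hearts and at 0.67, 1.08 and 1.02 in sham hearts. These arrays did not overlap, with a difference of -1.38 ± 0.43 (adjusted p = 0.177). Oxct1, which activates acetoacetate in tissues that burn ketone bodies, differed by 0.25 ± 0.64, and Bdh1, the hydroxybutyrate dehydrogenase, by -1.52 ± 0.62.

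When each of the 20380 single-gene probe sets was tested on its own, 5 member probe sets passed, all lower after CLP, in 4 genes: Etfdh, Echs1, Hadh and Acat1. The share of all probe sets that fell was 1.54%, and 0.976% rose. Acat1 had 2 of the 5, at -2.09 ± 0.31 (adjusted p = 0.0402) and -2.03 ± 0.32 (adjusted p = 0.0411), while its other probe set was flat at -0.01 ± 0.90. The passing Hadh probe set, one marked for possible cross-hybridisation, differed by -1.81 ± 0.27 (adjusted p = 0.0406). Among the 16 members with several probe sets, 5 had probe sets of opposite sign: Acadl, Cd36, Cpt1a, Crat and Oxct1.

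**Figure D2:**
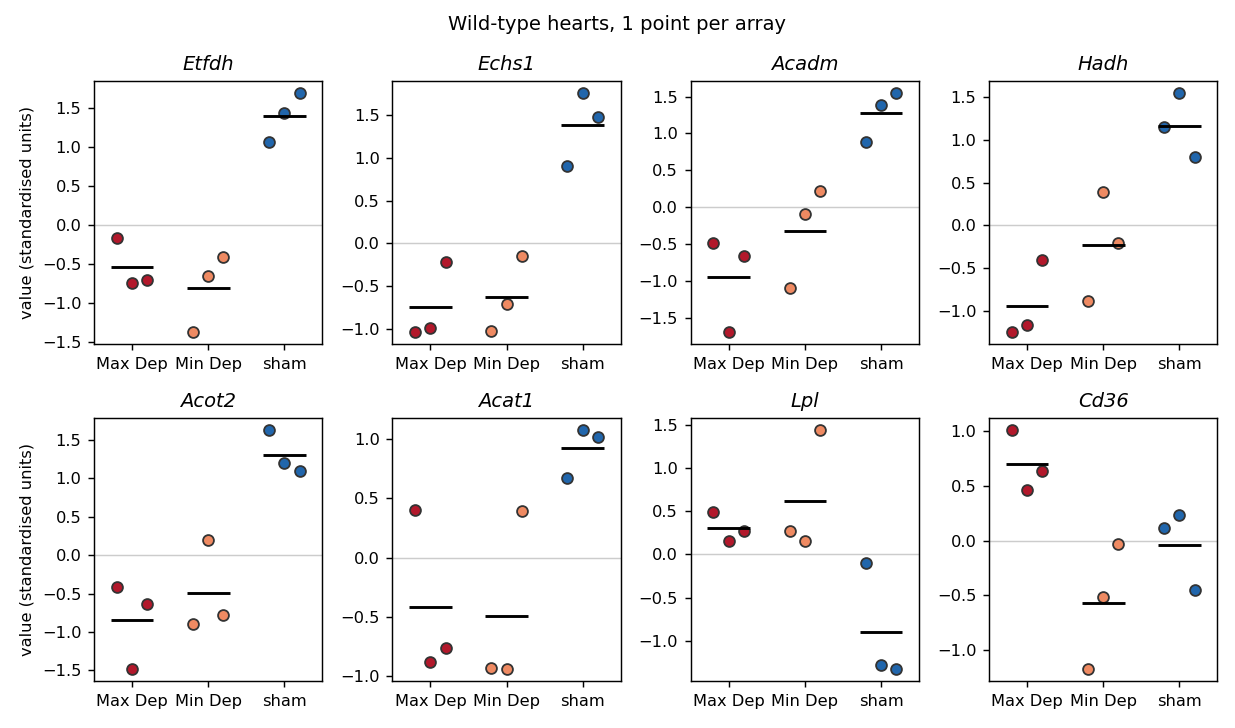
Values of 8 genes in wild-type hearts (vertical axis, standardised units), with 1 point per array for the Max Dep, Min Dep and sham groups of 3 and a line at each group mean; axes differ between panels. In the panels from Etfdh to Acat1 all 6 septic points lie below all 3 sham points, in the Lpl panel all lie above them, and for Cd36 the Max Dep points, 0.46 to 1.01, lie above both other groups.

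The Etfdh call did not hold under several alternatives. Its adjusted p was 0.0969 with moderated statistics, where 0 of all genes passed. It was between 0.0553 and 0.174 when any 1 of the 9 arrays was left out, at differences of -2.24 to -1.92. In those fits 0 to 186 of all genes passed. Other measures moved with the groups. The difference between the 5′ and 3′ control probe sets, averaged over Gapdh and Actb, is a rough sign of RNA integrity. It was taken between standardised values, so it is not a ratio of signals. It was -1.85 to 0.528 in Max Dep hearts, -0.559 to 0.0676 in Min Dep hearts and 0.39 to 1.76 in sham hearts. The 2 controls could disagree, as in Min Dep replicate 3, at -1.30 for Gapdh and 0.186 for Actb. With the averaged 5′ to 3′ difference as a covariate no member passed (Etfdh -2.08, adjusted p = 0.221), and 1 of all genes did. The 14 separated members kept their sign, 9 of them at an unadjusted p under 0.05 (limma), and the median over the 33 was -1.26.

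Adipocyte markers also moved: 9 of 9 were lower after CLP, 0 passed, and their mean per array was -1.12 to -0.04 in Max Dep hearts, -0.64 to -0.33 in Min Dep hearts and -0.07 to 1.74 in sham hearts. With that mean as a covariate no member passed (Etfdh -2.07, adjusted p = 0.378), and 0 of all genes did. The 14 separated members again kept their sign, 6 of them at an unadjusted p under 0.05 (limma), and the median was -1.12. Both covariates moved with the groups, so these fits cannot tell them apart from CLP. Single values moved: Lpl differed by 0.39 ± 0.53 with this covariate, Eci2 by -0.86 ± 0.95, Echs1 by -1.39 ± 0.45, Acadsb by 2.51 ± 0.94 and Acaa1a by 2.73 ± 0.54. Macrophage markers were higher in 12 of 12, of which 2 passed, with means of 0.42 to 1.19 in Max Dep, 0.06 to 0.50 in Min Dep and -1.42 to -0.62 in sham hearts. Cardiomyocyte markers were lower in 13 of 15 with a median of -0.22, 0 passing, and means of -0.30 to 0.09 in Max Dep, -0.77 to 0.12 in Min Dep and 0.29 to 0.54 in sham hearts. The differences of these 15 ran from -1.95 ± 0.32 for Tnnc1 to 0.83. Fibroblast markers were lower in 10 of 10 with a median of -1.53, 0 passing, and means of -0.51 to 0.14 in Max Dep, -1.66 to 0.30 in Min Dep and 0.93 to 1.07 in sham hearts. For the macrophage, cardiomyocyte and fibroblast lists the septic and sham means did not overlap. Capillary endothelial markers were higher in 6 of 10 with a median of 0.91, 0 passing. Their means overlapped, at -0.22 to 0.56 in Max Dep, 0.03 to 0.09 in Min Dep and -0.72 to 0.32 in sham hearts. In whole tissue, fewer cells of a type and less RNA per cell cannot be told apart, and the part of cell makeup in these differences was not tested beyond the adipocyte covariate.

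The 2 septic groups were then each set against the same 3 sham arrays, which the comparisons share. In Max Dep hearts 0 members passed (limma, 0 also with moderated statistics), where 0.452% of all genes did (0.29% higher and 0.161% lower). At an unadjusted p under 0.05, 11 were lower and 1 higher, 33.3% and 3.03%, against 7.84% and 8.87% of all genes. Differences below 0 numbered 22, 66.7% against 53.2% of all genes. The smallest adjusted p was that of Etfdh, 0.0794, at -1.94 ± 0.32. The arrays did not overlap for 15 members with lower values, 45.5% against 12.7% of all genes, and for 5 with higher values, 15.2% against 13.8%. All 5 later spiral genes were among the 15, from -2.13 for Echs1 to -1.29 for Hadhb. The largest single difference was that of Acadm, at -2.23 ± 0.48 (adjusted p = 0.113), followed by Etfa at -2.20 ± 0.55. Tested by probe set, the same Hadh probe set passed at -2.33 ± 0.32 (adjusted p = 0.0441), where 0.486% of all probe sets fell and 0.594% rose.

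In Min Dep hearts 0 members passed (limma, 0 also with moderated statistics), against 0.0565% of all genes (0.0161% higher and 0.0403% lower). At an unadjusted p under 0.05, 12 were lower and 4 higher, 36.4% and 12.1%, against 8.77% and 7.65% of all genes. Differences below 0 again numbered 22, against 45.5% of all genes. Etfdh again had the smallest adjusted p, 0.0709, at -2.21 ± 0.32. The arrays did not overlap for 13 members with lower values, 39.4% against 12.4% of all genes, and for 5 with higher values, 15.2% against 10.9%. Hsd17b4, a peroxisomal enzyme, was at -1.81, -0.09 and -0.78 in Min Dep hearts and at 0.28, 1.69 and 0.97 in sham hearts, a difference of -1.87 ± 0.59. Mlycd was at 0.14, 1.84 and 1.20 in Min Dep hearts and at 0.05, -0.48 and -1.34 in sham hearts, a difference of 1.65 ± 0.65. These 2 genes, with Eci1 at 1.73 ± 0.70 and Decr1 at -1.19 ± 0.54, were separated in Min Dep and not in Max Dep hearts. Tested by probe set 0 member probe sets passed, against 0.422% of all that fell and 0.128% that rose. Whether the septic groups differ in them is given by the comparison between them.

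Between Max Dep and Min Dep hearts 0 members passed by limma, with or without moderated statistics, and 0 of all genes did (0.0% passing). At an unadjusted p under 0.05, 1 member, Cd36, was higher and 0 were lower, against 5.21% and 4.6% of all genes, 1216 in number. Cd36 was at 1.01, 0.46 and 0.63 standardised units in Max Dep hearts and at -1.17, -0.51 and -0.03 in Min Dep hearts, a difference of 1.27 ± 0.34 (95% interval 0.43 to 2.11, adjusted p = 0.41). Its 3 probe sets differed by 1.92 ± 0.73, 1.69 ± 0.48 and 0.20 ± 0.66. Cd36 was the 1 member with every Max Dep array above every Min Dep array, 3.03% of the 33 against 7.89% of all genes.

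Crat and Eci1 had every Max Dep array below every Min Dep array, 6.06% of the members against 7.43% of all genes. Crat was at -0.54, -1.25 and -0.62 in Max Dep hearts and at 1.02, 0.61 and -0.21 in Min Dep hearts, a difference of -1.28 ± 0.53 (adjusted p = 0.511). Eci1 was at 0.21, -1.36 and -0.11 in Max Dep hearts and at 0.21, 0.88 and 2.16 in Min Dep hearts, where the closest arrays of the groups differ by less than the printed digits, and its difference was -1.50 ± 0.70 (adjusted p = 0.532). Mlycd, with arrays that overlapped, had the lowest difference, at -0.59, -1.27 and 0.39 in Max Dep hearts and at 0.14, 1.84 and 1.20 in Min Dep hearts (-1.55 ± 0.65, adjusted p = 0.514). Hsd17b4, at 0.22, -0.67 and 0.40 in Max Dep hearts and at -1.81, -0.09 and -0.78 in Min Dep hearts, differed by 0.87 ± 0.59, second to Cd36 among differences above 0. Over the list, 24 of the 33 differences were below 0, 72.7% against 53.3% of all genes, with a median of -0.39 against -0.08. Without Max Dep replicate 2 this was 18 of 33 with a median of -0.16, without Min Dep replicate 3 it was 20 of 33 with -0.14, and without Max Dep replicate 1 it was 26 of 33 with -0.69. All 6 acyl-CoA dehydrogenases, from -1.19 for Acadvl to -0.62 for Acadl, and all 5 later spiral genes, from -0.71 for Hadh to -0.12 for Echs1, had differences below 0 with overlapping arrays. For Etfdh the difference was 0.27 ± 0.32 with a 95% interval of -0.51 to 1.06. Single arrays stood out within the septic hearts: Max Dep replicate 2 was the lowest of the 6 for 13 of the 33 members, against 14.2% of all genes, and Min Dep replicate 3 the highest for 14, against 15.4%.

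**Figure D3:**
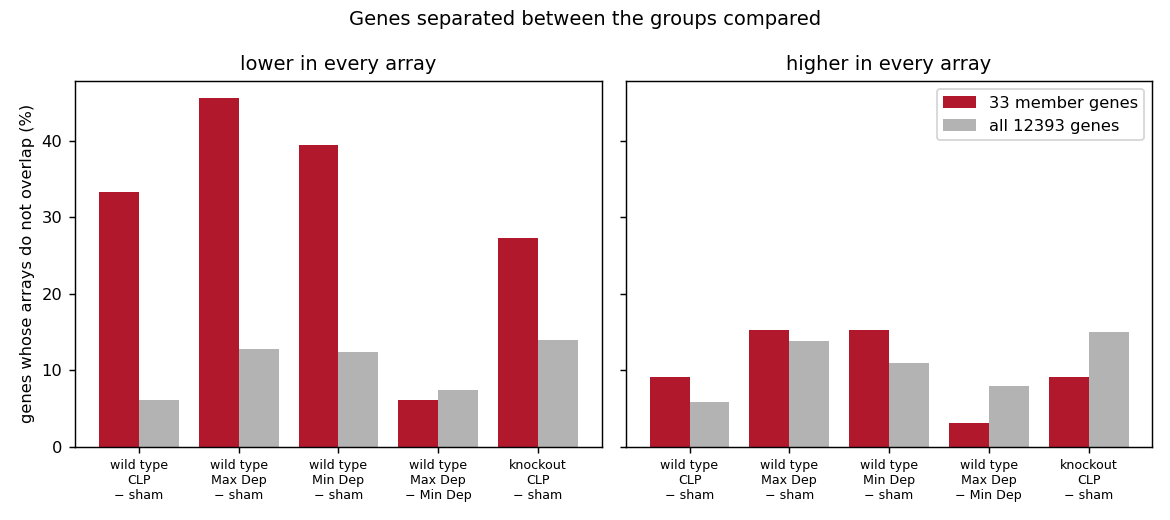
Share of genes (vertical axis, percent) whose arrays do not overlap between the groups compared, for the 33 measured members (red bars) and for all 12393 genes (grey bars), lower on the left and higher on the right, for the 4 wild-type comparisons and the knockout comparison. The red bars for lower values in the septic wild-type groups, 33.3% to 45.5%, stand well above the grey bars, 6.11% to 12.7%, while those for higher values and for Max Dep against Min Dep lie near or below the grey ones.

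Other genes of fatty acid metabolism were looked at from lists of the same pathways. In wild-type CLP hearts 2 of 14 regulators and targets of the nuclear receptor PPAR alpha fell: Ucp3, a mitochondrial carrier that is induced by fatty acids, by 1.96 ± 0.21 (adjusted p = 0.0307) and Pdk4, a kinase that restrains glucose oxidation, by 2.08 ± 0.29 (adjusted p = 0.0498). Neither passed with moderated statistics (adjusted p = 0.0969 for each) or with either covariate. With 1 array left out, Ucp3 passed only without Min Dep replicate 2 (adjusted p 0.0367 to 0.131 over the 9 fits) and Pdk4 in none (0.0519 to 0.172). In that list 10 of 14 had differences below 0, and Pdk2, another such kinase, differed by 1.69 ± 0.37 (adjusted p = 0.0888). Of 23 other mitochondrial acyl-CoA enzymes 0 passed and 16 were below 0, led by Mccc2, a subunit of the carboxylase of leucine breakdown, at -2.05 ± 0.30 (adjusted p = 0.0543). Of 15 other peroxisomal genes 0 passed and 12 were below 0, led by the import factors Pex19 at -1.96 ± 0.33 (adjusted p = 0.0597) and Pex5 at -1.47 ± 0.29 (adjusted p = 0.0757). Of 19 other fatty acid handling genes 0 passed and 13 were below 0, among them the acyl-CoA binding protein Dbi at -1.75 ± 0.41 and the carnitine transporter Slc22a5 at -1.52 ± 0.39. Of 14 genes of triglyceride storage and release 0 passed and 10 were below 0, with the monoglyceride lipase Mgll at -1.27 ± 0.33. Over all genes 49.2% were below 0. Cpt1b, the muscle form of the carnitine gatekeeper, is paired with a probe set of several genes and was not analysed here.

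The last comparison set CLP against sham hearts of the Nos2 knockout mice. The column of CLP replicate 1 lay between the other 2 CLP columns in 76.0% of probe sets, where a sham column did so in 32.8% to 34.4%, so it was left out and 2 CLP arrays were compared with 3 sham arrays. No member passed, nor did any of the 12393 genes (0.0%, limma with moderated statistics). At an unadjusted p under 0.05, 6 members were lower and 1 higher, 18.2% and 3.03%, against 6.08% and 5.83% of all genes. With all 6 arrays 295 genes passed, 0 of them members. Of the 33 members 24 had a difference below 0, 72.7% against 48.5% of all genes, with a median of -0.56 against 0.03 log-like units. This shift changed with the array left out. Without CLP replicate 2, which leaves 1 CLP array assumed to vary like the sham arrays, 15 of 33 were below 0 with a median of 0.05, and without sham replicate 3, 19 of 33 were with a median of -0.05. Without CLP replicate 3, 27 of 33 were below 0 with a median of -1.01.

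The arrays of the groups did not overlap for 9 members with lower values after CLP, 27.3% against 14.0% of all genes, and for 3 with higher values, 9.09% against 15.0%. Of these 9, 5 were genes of uptake and of the carnitine and thioesterase steps. Cd36 was at 0.14 and -2.32 log-like units in CLP hearts and at 1.03, 1.00 and 0.79 in sham hearts, a difference of -2.03 ± 0.74 (adjusted p = 0.354). Slc27a1 was at -1.77 and -0.85 in CLP hearts and at 0.65, 0.00 and 2.64 in sham hearts, a difference of -2.41 ± 0.84 (adjusted p = 0.323). In both genes the CLP arrays lay apart from the sham arrays, though for Cd36 the 2 CLP arrays differed by more than the gap to sham, and of its probe sets 2 differed by -3.53 and -2.72 and the other by 0.17. Without CLP replicate 3 the Cd36 difference was -0.79, and without CLP replicate 2 it was -3.26.

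Acot1 had the lowest difference of the list. It was at -1.57 and -5.17 in CLP hearts and at 0.19, 0.00 and 3.09 in sham hearts, a difference of -4.46 ± 1.33 with a 95% interval of -7.66 to -1.25 (adjusted p = 0.26). Without CLP replicate 3 it was -2.66. Cpt1a was at -1.19 and -1.37 in CLP hearts and at 1.46, 0.01 and 0.02 in sham hearts, a difference of -1.78 ± 0.58 (adjusted p = 0.296). Most of the Cpt1a difference came from 1 of its 3 probe sets, at -3.70 ± 1.16, with the others at -1.05 and -0.58. Mlycd was at -1.40 and -1.11 in CLP hearts and at -0.31, 1.70 and 1.38 in sham hearts, a difference of -2.17 ± 0.68 (adjusted p = 0.277). The 6 genes of this role that were measured all had differences below 0, with Cpt2, Crat and Acot2 between -0.67 and -0.21 and overlapping.

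The other members separated downwards were Ehhadh at -2.18 ± 1.29, Eci2 at -1.45 ± 0.57, Hadh at -1.35 ± 0.59 and Acadl at -0.68 ± 0.47. Ehhadh was at -1.08 and -0.38 in CLP hearts and at -0.08, 4.20 and 0.25 in sham hearts, where a single sham array, replicate 2, stood far above the rest, and without it the difference was -0.81. Eci2 was at -1.46 and -0.62 in CLP hearts and at -0.11, 0.14 and 1.20 in sham hearts, with an adjusted p of 0.394. Etfdh, which fell in wild type, was at -1.74 and 0.66 in CLP hearts and at -1.97, 0.43 and 1.92 in sham hearts. Its groups overlapped widely, at -0.67 ± 1.24 with a 95% interval of -3.64 to 2.31. Echs1 differed by 0.87 ± 0.90, also with overlap.

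On the other side, Bdh1, the hydroxybutyrate dehydrogenase, had the highest difference. It was at 3.54 and 4.65 in CLP hearts and at -0.34, 2.55 and -0.85 in sham hearts, a difference of 3.64 ± 1.05 with a 95% interval of 1.11 to 6.17 (adjusted p = 0.241, the smallest of the 33). Its 2 probe sets differed by 4.49 ± 1.11 and 2.79 ± 1.05. All 3 ketone body genes had differences above 0, with Acat1 at 0.29 ± 0.70. Oxct1 was at 0.58 and 1.68 in CLP hearts and at -1.33, 1.08 and -0.36 in sham hearts, a difference of 1.33 ± 0.78 with overlap. Lpl was at 0.71 and 1.22 in CLP hearts and at -0.96, -0.33 and 0.41 in sham hearts, a difference of 1.26 ± 0.54 (adjusted p = 0.438), and Acadsb differed by 0.72 ± 0.47.

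**Figure D4:**
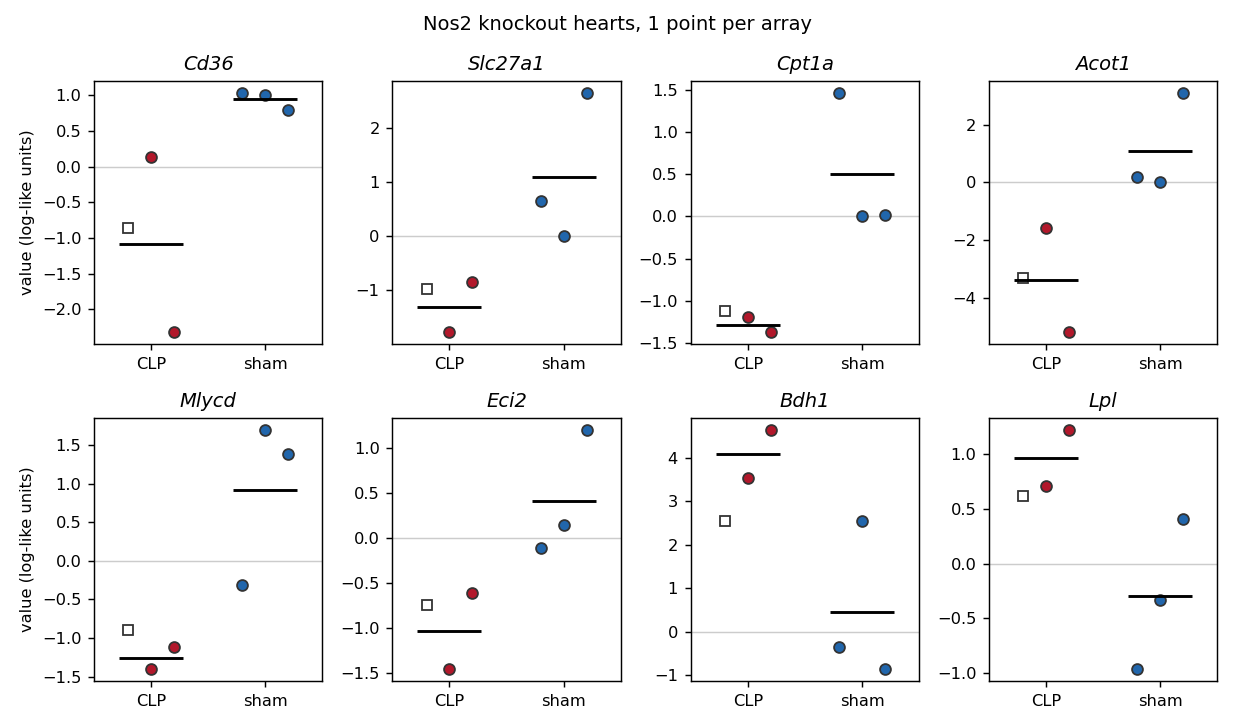
Values of 8 genes in Nos2 knockout hearts (vertical axis, log-like units of unstated base), with 1 point per array for the CLP and sham groups and a line at each group mean; axes differ between panels. The open square is CLP replicate 1, which is left out of the line. The CLP points used lie below all sham points in the panels from Cd36 to Eci2 and above them for Bdh1 and Lpl.

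Single arrays stood out in these values. Sham replicate 1 was the lowest of the 3 sham arrays for 27 of the 33 members, against 35.1% of all genes. Without it 27 of 33 differences were below 0 (50.3% of all genes), the median was -1.03, and 18 members were separated downwards, against 19.8% of all genes. Without CLP replicate 2 the number separated downwards was 9, against 24.04% of all genes, and without CLP replicate 3 it was 16, against 28.09%. CLP replicate 2 lay below CLP replicate 3 for 29 of 33 members, against 55.8% of all genes. The 5′ to 3′ control difference was -2.06 and -0.776 in the CLP arrays used and -1.97, 0.209 and 0.981 in the sham arrays, so it was low in the same CLP replicate 2 and sham replicate 1 arrays.

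Capillary endothelial markers were lower in 10 of 10 after CLP in the knockout, with a median of -3.55, 0 passing, and array means of -0.82 and -2.83 in CLP hearts and 1.55, 2.35 and 0.59 in sham hearts. Endothelial cells also express Cd36. Macrophage markers were higher in 11 of 12 with a median of 2.65, 0 passing, and means of 2.62 and 2.01 in CLP hearts and -0.21, 0.06 and -0.62 in sham hearts. Cardiomyocyte markers were lower in 9 of 15 with a median of -0.27, 0 passing, and means of -1.44 and 0.48 in CLP hearts and -0.71, 0.35 and 0.55 in sham hearts. The differences of these 15 ran from -3.59 for Actc1 to 0.89. Fibroblast markers were lower in 8 of 10 with a median of -1.45, 0 passing, and means of -0.32 and -1.60 in CLP hearts and 0.20, 0.82 and 0.34 in sham hearts. Adipocyte markers were lower in 5 of 9 with a median of -0.10, 0 passing, and means of -0.61 and -1.24 in CLP hearts and -0.30, -0.18 and 0.91 in sham hearts. For each of these lists but the cardiomyocyte one the means did not overlap between the groups. The part of these markers and arrays in the members' differences was not tested.

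Among the other genes of the pathway 0 passed in the knockout. The fatty acid binding protein gene Fabp4 differed by -5.56 ± 0.89 (adjusted p = 0.0924), the peroxisomal transporter Abcd3 by -3.75 ± 0.60 (adjusted p = 0.0924) and Ucp3 by -3.09 ± 0.47 (adjusted p = 0.0915). Ppara itself differed by 5.28 ± 1.36 (adjusted p = 0.199) and its target Angptl4, an inhibitor of lipoprotein lipase, by -4.26 ± 1.16 (adjusted p = 0.217). Of 23 other mitochondrial acyl-CoA enzymes 7 were below 0 and 16 above, with a median of 0.26, and of 19 other fatty acid handling genes 10 were below 0, with a median of -0.25. Of 15 other peroxisomal genes 9 were below 0, with a median of -0.59, and of 14 regulators and PPAR alpha targets 9 were, with a median of -0.55. Of 14 genes of triglyceride storage and release 10 were below 0, with a median of -0.88, among them the lipases Mgll at -3.80 ± 0.71 and Lipe at -3.18 ± 0.71.

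The wild-type and knockout comparisons share no arrays, so the signs of their differences can be set beside each other. The CLP difference had the same sign in both for 23 of 33 members, against 55.1% of all genes, and was below 0 in both for 18, against 26.4%. Hadh and Eci2 were separated downwards in both tables (1.39% of all genes) and Lpl and Acadsb upwards in both (2.18% of all genes). In opposite directions 0 members were separated, and the share of all genes for this was not computed, so it carries no reading. Etfdh, Echs1, Acot2, Acadm, Acads, Hadha, Acaa2, Etfa and Acat1, separated downwards in wild type, overlapped in the knockout, and Cd36, Slc27a1, Cpt1a, Acot1, Mlycd, Acadl and Ehhadh, separated downwards in the knockout, overlapped in wild type. In the knockout, sham replicate 1 was the lowest sham array for every gene from Etfdh to Acat1 named here, at -1.97 to -1.33. Without it their differences ran from -2.34 for Hadha to 0.05 for Echs1, with Etfdh at -1.71. Hadha, Acaa2 and Acads then no longer overlapped, so for these genes the overlap rested on that array. Whether the response to CLP differs between genotypes was not tested, because the units of the tables differ.

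**Figure D5:**
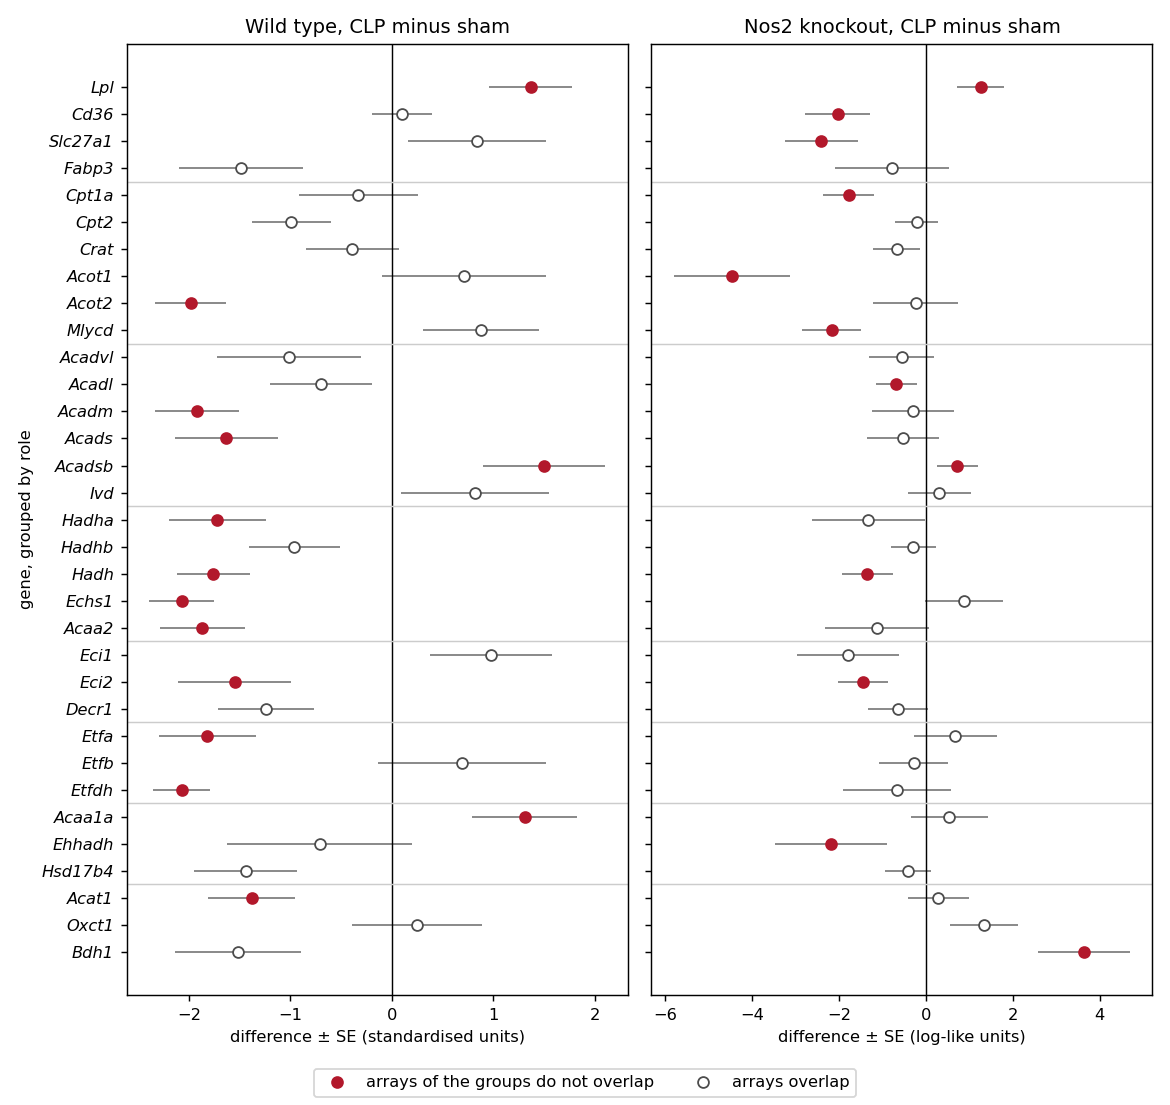
CLP minus sham difference with its SE (horizontal axis) for each of the 33 genes, grouped by role, in wild-type hearts on the left (standardised units, 6 against 3 arrays) and in Nos2 knockout hearts on the right (log-like units, 2 against 3 arrays); filled points are genes whose arrays do not overlap between the groups. In wild type 11 filled points lie at -2.07 to -1.38, 8 of them among the acyl-CoA dehydrogenases, the later spiral steps and the flavoprotein genes. In the knockout 5 of the 9 filled points below 0 are genes of uptake and of the carnitine and thioesterase steps, with Acot1 at -4.46, and Bdh1 is at 3.64.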

How the data were processed

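The data are whole-heart total RNA on 15 oligonucleotide arrays. The authors deposited 2 tables of values, 9 wild-type and 6 knockout arrays, each with 22690 probe sets. Both hold a score: the wild-type score is standardised, as tested on the deposited table itself, and the knockout score is on a log-like scale around a reference that is not given. The software and the log base are not given in the sources used here, and without intensities no filter on dim probe sets was possible. After 64 control probe sets were left out, the platform annotation paired 20380 probe sets with 1 gene, 691 with several and 1555 with none. The first were averaged to 12393 genes, so probe sets shared by close relatives such as Acot1 and Acot2 stayed out.

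Linear models were fitted per gene (limma 3.58.1, R 4.3.3), with Benjamini-Hochberg adjustment over all genes and a threshold of 0.05. Wild-type statistics were unmoderated, since moderation pulls standardised rows towards a common spread, and used all 9 arrays. Knockout statistics were moderated with eBayes on 5 arrays. The fits were tested on simulated data. The labels do not say that arrays are separate litters or batches, and p-values measure only the spread between arrays. The members, the lists and the tests were chosen with earlier results of these data known. Array values were printed for members that passed by gene or probe set and, per comparison, for up to 6 separated members by smallest p and the extreme differences, with some others added afterwards; non-members were those of the lists that passed or up to 3 per list by smallest p. Promoters came from RefSeq. Alternatives were moderation, each probe set alone, the median over probe sets, undone array scaling, array centring, the integrity and adipocyte covariates, the arrays compared alone, all 6 knockout arrays and each array left out.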

Additional observations from a re-analysis of the deposited data

Results flagged for a closer look

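Of the 33 measured members, 5 had a single septic wild-type array that stood apart from the other 5 by more than its critical gap (a test of the highest or lowest of 6 values), against 8.79% of all genes. The test is set to flag about 1 in 20 groups by chance, a rate below the 8.79% seen over all genes. The 6 values pool Max Dep and Min Dep hearts. Min Dep replicate 3 was the highest for Lpl at 1.45, for Acadsb at 1.98 and for Ivd at 2.42 standardised units. Max Dep replicate 2 was the lowest for Acot1 at -2.29, and Min Dep replicate 1 the lowest for Eci2 at -2.07.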

How the results depend on the processing

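Of the wild-type members, 1 passed for CLP against sham. With moderated statistics, the integrity covariate or the adipocyte covariate 0 did, with array scaling undone 2 did (Etfdh, adjusted p = 0.0377, and Echs1, adjusted p = 0.0408), and with each probe set tested 4 genes did. With any 1 of the 9 arrays left out 0 passed. For Max Dep against sham each probe set tested gave 1 gene, against 0. Leaving out an array gave 11 to 15 members separated downwards for wild-type CLP (6.72% to 10.01% of all genes) and 3 to 4 upwards (6.5% to 9.13%). For Max Dep against Min Dep it gave 2 to 11 downwards (11.57% to 16.03%, with 11.57% beside the 11) and 1 to 3 upwards (10.98% to 15.34%). For knockout CLP it gave 9 to 18 downwards (19.66% to 28.09%, with 19.83% beside the 18) and 3 to 8 upwards (20.36% to 31.49%, the last beside the 8). Undone scaling gave 6 downwards for Max Dep against Min Dep (11.25% of all genes), against 2 (7.43%). That scaling moved the median of all genes to 0.27 from 0.12 for Min Dep against sham and to -0.28 from -0.08 for Max Dep against Min Dep. Of all genes, 2 of 7 calls for Min Dep were higher, against 13 of 27 with scaling undone. Among the members, no called difference reversed sign under any alternative run by gene. Those calls were Etfdh and, with scaling undone, Echs1, so this covers these genes only. No paired analysis was possible because replicate numbers only name the arrays. The number of arrays limits every value, and signal over background is not known.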
